A study of Homo sapiens with 21 samples.

Results

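FGFR1 chromatin occupancy was set against that of the serine-5-phosphorylated form of RNA polymerase II (Pol II S5P) in untransfected CAMA1 cells, an established ER+ breast cancer cell line with amplified FGFR1. Members were the peaks of 4 of the 14 deposited lists, 2 of FGFR1 (antibody ab10646) and 2 of Pol II S5P (4H8, an antibody to the Rpb1 C-terminal domain). All cells were at a passage below 10 and had spent 48 h in estradiol-deprived medium before ChIP-seq, the sequencing of DNA that co-precipitates with a protein. They carried no siRNA, and no untreated or estradiol-supplied cells are part of the comparison. A reproducible region was a merged stretch holding a peak of both lists of a target, on chromosomes 1 to 22 and X. There were 4736 such FGFR1 regions and 9969 Pol II S5P regions, of 250332 reproducible regions over the 7 groups of the series. A region was called shared when it overlapped a region of the other target by at least 1 bp, and FGFR1-only or Pol II-only otherwise. CAMA1 is a single cell line, so no value below speaks for other tumours.

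FGFR1 is a receptor tyrosine kinase of the cell surface that binds fibroblast growth factors and signals through FRS2, RAS and ERK; nuclear forms of it have also been described. The largest subunit of Pol II, Rpb1, carries a tail of repeated heptapeptides. CDK7, a kinase of the general transcription factor TFIIH, phosphorylates serine 5 of that tail as the polymerase leaves the promoter, so the mark peaks just inside active genes, where the polymerase pauses before elongation. The target is called Pol II S5P here as in the labels, which name the antibody only as one to the Rpb1 tail.

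The promoters below were chosen to show 3 classes of gene end. Genes were ranked by peak strength among those that had, within 1 kb of an end, both targets, FGFR1 with no Pol II S5P peak in either list, or Pol II S5P with no FGFR1 peak in either list. The first 3 of each class are shown whose window in the RefSeq table was itself overlapped by regions of that class. Stronger genes such as TAF12 and PRSS12 were passed over because their windows were not, and ZBTB9 because its window was overlapped by both targets. Each sequence runs 5′ to 3′ on the gene's strand from 250 bases before to 50 bases after the annotated start (RefSeq, GRCh38.p14). Capitals mark matches, on either strand, to 9 motifs. The TATA box was searched as TATAAA and the GC box as GGGCGG. Motifs of the factor NF-Y and of ETS proteins were searched as CCAAT and as CCGGAAGT. The E box was CACGTG, the AP-1 motif TGACTCA and the cyclic AMP response element TGACGTCA. The forkhead core was TGTTTAC and the CTCF core AGGGGGCGC. The CTCF core was added after the printed sequences had been seen. A match is a run of letters and not a bound site.
LOC124900276 (both targets, chr9:136728135-136728434, minus strand): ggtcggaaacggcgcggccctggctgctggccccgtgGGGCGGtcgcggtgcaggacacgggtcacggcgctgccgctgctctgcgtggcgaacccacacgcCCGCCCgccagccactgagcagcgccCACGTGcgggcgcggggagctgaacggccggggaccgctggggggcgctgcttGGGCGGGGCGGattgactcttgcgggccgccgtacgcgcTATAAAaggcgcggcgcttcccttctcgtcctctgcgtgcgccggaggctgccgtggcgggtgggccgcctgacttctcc
CDC25C (both targets, chr5:138338306-138338605, minus strand): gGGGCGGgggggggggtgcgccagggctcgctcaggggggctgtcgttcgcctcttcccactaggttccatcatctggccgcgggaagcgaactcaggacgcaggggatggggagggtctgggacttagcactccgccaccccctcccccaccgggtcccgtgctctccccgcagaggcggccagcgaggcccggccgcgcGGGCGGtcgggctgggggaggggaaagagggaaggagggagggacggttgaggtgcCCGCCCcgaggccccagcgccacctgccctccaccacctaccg
JUNB (both targets, chr19:12791236-12791535, plus strand): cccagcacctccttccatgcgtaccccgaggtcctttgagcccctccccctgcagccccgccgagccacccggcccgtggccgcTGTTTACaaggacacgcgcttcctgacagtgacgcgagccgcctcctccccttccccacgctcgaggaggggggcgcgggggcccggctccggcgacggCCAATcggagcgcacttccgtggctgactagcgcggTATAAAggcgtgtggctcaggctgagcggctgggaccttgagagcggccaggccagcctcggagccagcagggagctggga
RAPGEF1 (FGFR1 only, chr9:131740027-131740326, minus strand): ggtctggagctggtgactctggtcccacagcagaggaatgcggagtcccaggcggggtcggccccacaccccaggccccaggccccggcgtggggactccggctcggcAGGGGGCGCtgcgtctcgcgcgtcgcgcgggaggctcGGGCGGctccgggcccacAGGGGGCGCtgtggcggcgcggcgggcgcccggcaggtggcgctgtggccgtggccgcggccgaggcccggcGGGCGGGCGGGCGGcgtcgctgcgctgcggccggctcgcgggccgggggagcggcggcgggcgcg
ELOVL2 (FGFR1 only, chr6:11044256-11044555, minus strand): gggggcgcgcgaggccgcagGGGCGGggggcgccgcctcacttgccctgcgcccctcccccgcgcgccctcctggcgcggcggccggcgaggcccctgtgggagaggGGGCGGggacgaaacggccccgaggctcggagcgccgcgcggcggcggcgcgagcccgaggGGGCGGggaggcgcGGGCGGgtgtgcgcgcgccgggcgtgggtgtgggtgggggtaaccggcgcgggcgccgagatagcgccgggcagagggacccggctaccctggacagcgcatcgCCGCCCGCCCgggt
COXFA4L3 (FGFR1 only, chr15:45430360-45430659, plus strand): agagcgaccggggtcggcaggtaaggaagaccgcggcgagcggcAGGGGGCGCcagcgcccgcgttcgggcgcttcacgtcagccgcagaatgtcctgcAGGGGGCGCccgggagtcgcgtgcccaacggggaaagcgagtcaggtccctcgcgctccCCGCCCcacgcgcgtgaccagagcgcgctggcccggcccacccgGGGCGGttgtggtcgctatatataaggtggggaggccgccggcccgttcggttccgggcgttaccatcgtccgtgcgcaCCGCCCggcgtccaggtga
CNPY3 (Pol II S5P only, chr6:42928880-42929179, plus strand): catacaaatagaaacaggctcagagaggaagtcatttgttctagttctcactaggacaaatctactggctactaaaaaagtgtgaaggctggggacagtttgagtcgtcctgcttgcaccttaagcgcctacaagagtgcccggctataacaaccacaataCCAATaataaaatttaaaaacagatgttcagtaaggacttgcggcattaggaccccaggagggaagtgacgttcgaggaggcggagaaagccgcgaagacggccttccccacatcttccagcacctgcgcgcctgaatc
CDC26 (Pol II S5P only, chr9:113275523-113275822, minus strand): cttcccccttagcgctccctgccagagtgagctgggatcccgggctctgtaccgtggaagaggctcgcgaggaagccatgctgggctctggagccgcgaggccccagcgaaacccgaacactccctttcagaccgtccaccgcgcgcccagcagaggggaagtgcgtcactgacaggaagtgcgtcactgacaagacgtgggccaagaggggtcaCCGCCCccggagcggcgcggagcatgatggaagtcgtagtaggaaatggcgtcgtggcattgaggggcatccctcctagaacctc
RPL35A (Pol II S5P only, chr3:197949940-197950239, plus strand): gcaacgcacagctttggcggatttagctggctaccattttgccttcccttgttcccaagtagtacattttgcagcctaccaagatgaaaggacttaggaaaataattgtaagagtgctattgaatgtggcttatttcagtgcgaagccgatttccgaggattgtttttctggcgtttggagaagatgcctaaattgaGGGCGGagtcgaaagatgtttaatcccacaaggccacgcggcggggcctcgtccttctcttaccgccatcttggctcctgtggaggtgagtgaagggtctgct

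The JUNB window, of an immediate early AP-1 gene, holds a TATA box, a CCAAT box and a forkhead core. The RAPGEF1 and COXFA4L3 windows hold 2 CTCF-core matches each, and none of the other 7 windows holds one. GC content is 83.0% at RAPGEF1 and 83.7% at ELOVL2, against 48.3% at CNPY3 and 49.0% at RPL35A. COXFA4L3 (73.3%) and CDC26 (64.7%) lay between these, and the windows with both targets held 71.0% to 75.3%. No FGFR1 region overlaps the CNPY3 window, but one starts just past it (chr6:42929284-42929781), inside the same Pol II S5P region. The class of CNPY3 thus holds for its window and its gene ends, and not for the DNA just inside its start.

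The lists of each target differed in length. The FGFR1 lists held 5341 and 13135 peaks, and the Pol II S5P lists 18713 and 12267. Of the peaks of FGFR1 replicate 1, 93.1% overlapped one of replicate 2, but only 36.3% of those of replicate 2 overlapped one of replicate 1, so the reproducible FGFR1 regions are close to the shorter list. For Pol II S5P these shares were 54.5% and 88.0%. No total read counts were used here; the background of the lists, which was recovered from the deposited fold enrichments and p-values, was 3.40 and 3.50 fragments per position for FGFR1 and 2.23 in both Pol II S5P lists. Reproducible Pol II S5P regions were at 8 of 10 luminal marker genes, with ESR1 and TFF1 lacking them, beside 38.9% of all genes. They were at 0 of the 30 basal or mesenchymal, haematopoietic, neuronal and hepatic markers, though SYP and RBFOX3 had a Pol II S5P peak that was not reproducible. FGFR1 was at 6 of the luminal markers and at 2 of the others, MAP2 and SYP, beside 19.9% of all genes.

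Most reproducible FGFR1 regions lay on Pol II S5P, whereas a smaller share of the more numerous Pol II S5P regions carried FGFR1. Of the 4736 FGFR1 regions, 3937 were shared with Pol II S5P (83.1%, Wilson 95% interval 82.0% to 84.2%) and 799 were FGFR1-only. Of the 9969 Pol II S5P regions, 4016 were shared with FGFR1 (40.3%, 39.3% to 41.3%) and 5953 were Pol II-only. These intervals cover counting error only. Over single lists, 79.0% and 62.3% of FGFR1 peaks overlapped a Pol II S5P region, against 24.1% and 35.0% of Pol II S5P peaks that overlapped an FGFR1 region, and the values of the targets did not overlap (exact permutation test over the 4 lists, two-sided, p = 0.3333, the smallest that 2 against 2 allows). Both shares count nearly the same stretches over unequal numbers of regions, so this test cannot tell binding from list length. With lists of equal length the shares were 65.8% for FGFR1 and 56.1% for Pol II S5P. With FGFR1 replicate 2 alone the order was reversed, at 62.3% and 78.4%.

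The single FGFR1 lists gave very different answers from the Pol II S5P side. Of the 5953 Pol II-only regions, 3782 had a peak in FGFR1 replicate 2 and none in replicate 1, and 2087 had no FGFR1 peak in either list. With FGFR1 replicate 2 alone, 78.4% of Pol II S5P regions carried FGFR1; with replicate 1 alone, 40.0% did. From the FGFR1 side, 474 of the 799 FGFR1-only regions had no Pol II S5P peak in either list, and 303 had one in Pol II S5P replicate 1 only. Per chromosome, the shared part of FGFR1 regions ran from 41.2% on X, with 17 regions, to 90.2% on chromosome 4, and that of Pol II S5P regions from 7.41% on X to 57.7% on chromosome 5.

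Among reproducible regions, the strength of Pol II S5P went with the presence of FGFR1. The share of FGFR1 regions with Pol II S5P was lower in the weakest FGFR1 regions and varied little among the others. Strength is the authors' fold enrichment, the fragments at a summit over the background of the list, and regions were split into 10 equal groups by its rank within the lists. The share of Pol II S5P regions with FGFR1 was 8.63% (7.04% to 10.5%) in the weakest group, 30.8% in the fifth and 88.2% (86.0% to 90.02%) in the strongest. The share of FGFR1 regions with Pol II S5P was 71.5% (67.3% to 75.4%) in the weakest group and between 82.2% and 87.3% in the other 9. These FGFR1 regions leave out many weaker peaks of replicate 2. Their median fold in that list was 7.77, beside 5.33 over all its peaks. Of all peaks of replicate 2, 62.3% overlapped a Pol II S5P region, so the groups do not cover the weaker ones. In a bulk population, a peak seen in more cells and more protein bound per cell cannot be told apart.

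**Figure D1:**
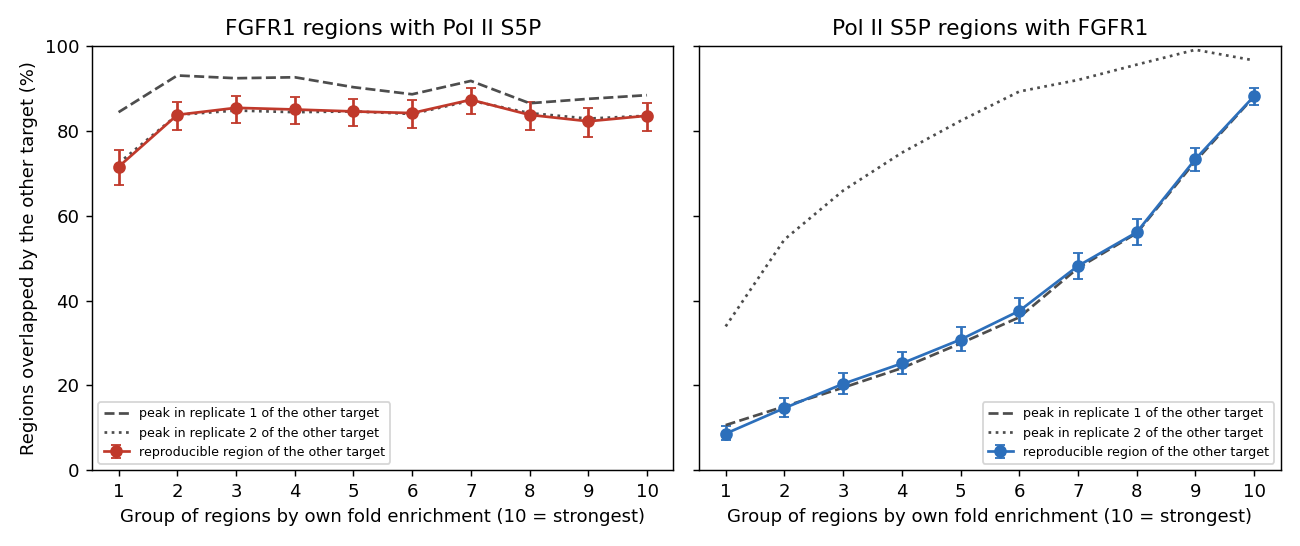
Share of FGFR1 regions (left) and Pol II S5P regions (right) overlapped by the other target (y axis, %), in 10 equal groups by their own fold enrichment (x axis, 10 = strongest). Points are reproducible regions with 95% Wilson intervals, and dashed and dotted lines use the single lists of the other target; the right-hand points climb from 8.63% to 88.2%, the left-hand ones lie between 71.5% and 87.3%.

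Median enrichment of the reproducible regions shows the same asymmetry. Shared FGFR1 regions had a median fold of 5.46 and 7.99 in the replicate lists, against 5.46 and 7.77 in FGFR1-only regions. Shared Pol II S5P regions had 11.3 and 9.01, against 7.36 and 5.89 in Pol II-only regions, which is 1.54 and 1.53 times as much. The FGFR1 medians of both classes were thus close, and the FGFR1-only regions with no Pol II S5P peak in either list had medians of 5.69 and 8.44.

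Shared regions were wider than regions of a single target on both sides. The median width of FGFR1 regions was 604 bp when shared and 400 bp when FGFR1-only, a ratio of 1.51. Pol II S5P regions had a median of 691 bp when shared and 510 bp when Pol II-only, a ratio of 1.35. Shared regions had the larger median in 10 of 10 strength groups of either target. Over the single peaks of each list the ratio was 1.31 and 1.62 for FGFR1 (mean 1.46 ± 0.223, SD, n = 2 lists) and 1.88 and 1.62 for Pol II S5P (1.75 ± 0.190). A wider region meets another one more easily, and the part of that in these ratios was not tested.

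**Figure D2:**
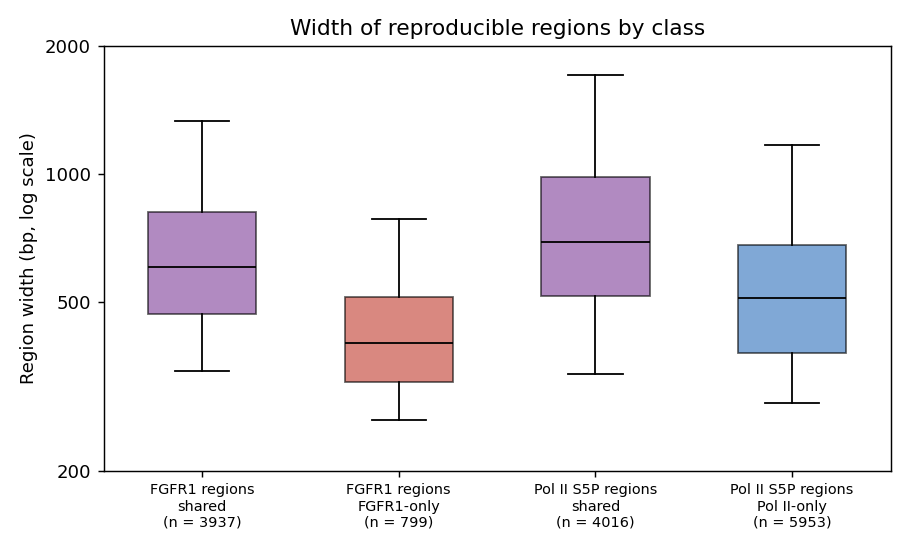
Width of reproducible regions (y axis, bp, log scale) of FGFR1 and Pol II S5P by class (x axis); lines are medians, boxes the 25th to 75th percentiles, and whiskers the 5th and 95th percentiles. Medians are 604 and 400 bp for shared and FGFR1-only regions, and 691 and 510 bp for shared and Pol II-only regions.

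Median peak width overlapped between the lists of the targets. Median peak width was 316 and 377 bp in the FGFR1 lists, against 380 and 358 bp in the Pol II S5P lists, a difference of -22.5 bp (exact permutation test, two-sided, p = 0.667; 2 against 2 allows no p below 0.3333). The difference was -77 bp among peaks of a -log10 q of at least 5 and -148.5 bp in lists of equal length (exact p = 0.667 in each). Very broad peaks, over 2000 bp, numbered 3 and 34 in the FGFR1 lists and 187 and 46 in the Pol II S5P lists. Within shared stretches FGFR1 was mostly the narrower: it was narrower than the Pol II S5P region in 2811 of 3937 pairs (71.4%), with a median width ratio of 0.848, FGFR1 over Pol II S5P.

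The widest Pol II S5P regions at protein-coding genes showed how FGFR1 sat inside broad polymerase domains. The widest covered 19035 bp (chr11:69637987-69657021) over CCND1, the gene of cyclin D1, with folds of 43.0 and 33.6. FGFR1 had 5 separate regions in it, among them the widest FGFR1 region at any gene (3808 bp, folds 21.6 and 27.8). XBP1, a transcription factor of the unfolded protein response, had 9277 bp of Pol II S5P (folds 19.9 and 18.6) and no reproducible FGFR1 region; only FGFR1 replicate 2 had a peak there. The next were the stretch at GPT, RECQL4 and SLC33A2 (8647 bp, 2 FGFR1 regions), the keratin gene KRT19 (7255 bp, 3 FGFR1 regions) and the stretch at C8orf82, LRRC14 and LRRC24 (6208 bp, 3 FGFR1 regions). In all, 86 Pol II S5P regions held 2 or more FGFR1 regions. The most, 6, lay in an 11542 bp stretch over MALAT1, an abundant nuclear long non-coding RNA, which is outside the protein-coding gene set and was picked out after its values were seen. After CCND1, the widest FGFR1 regions at genes were 3675 bp at JADE2, 3027 bp at LOC124902704, 2978 bp at RBM15, which encodes an RNA-binding protein, and 2974 bp at BRD2, which encodes a reader of acetylated histones.

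FGFR1 and Pol II S5P summits lay close together, but farther apart than the summits of replicates of either target. Over the 4 pairings of an FGFR1 list with a Pol II S5P list, the median distance between summits in shared regions was 81 to 89 bp (mean 84 ± 3.83, SD over the 4 pairings, which share lists), and 53.8% to 56.7% of summit pairs lay within 100 bp. Between the replicates of FGFR1 the median was 50.5 bp, with 71.8% within 100 bp, and between those of Pol II S5P it was 26 bp, with 82.6% within 100 bp. The distance was largest in broad Pol II S5P regions: its median was 71.5 bp in regions up to 500 bp, 66.5 bp above that and up to 1000 bp, 98.5 bp above that and up to 2000 bp and 328.5 bp in the 185 pairs over 2000 bp. At POLR2A, which encodes Rpb1 itself, the mean summits were 173 bp apart, and at FGFR1 37.5 bp.

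**Figure D3:**
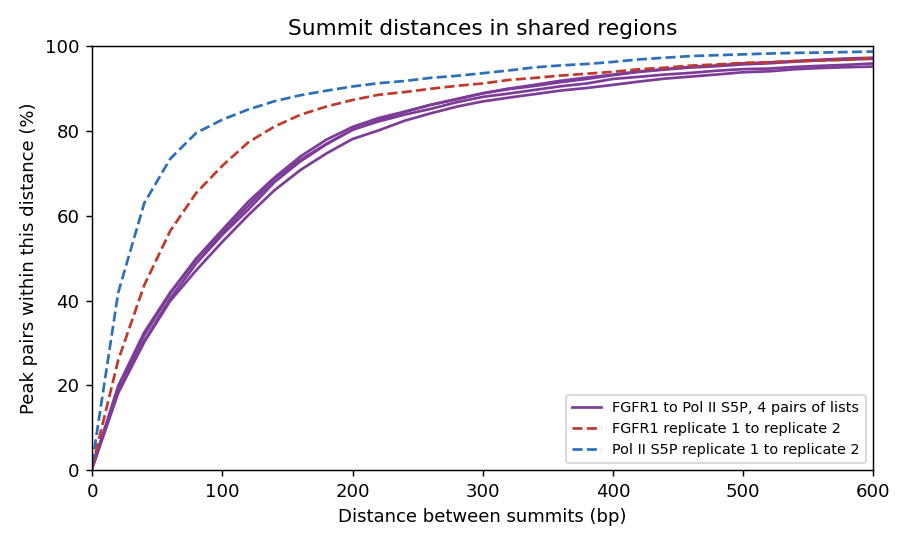
Cumulative share of peak pairs (y axis, %) by distance between their summits (x axis, bp) in shared regions. The 4 FGFR1 to Pol II S5P pairings (solid) lie together, with medians of 81 to 89 bp, right of the replicate pairs of FGFR1 (50.5 bp) and Pol II S5P (26 bp, both dashed).

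Around gene starts the summits of FGFR1 sat upstream of those of Pol II S5P. Positions are relative to the annotated start, with positive values inside the gene, for regions with a single protein-coding start within 1 kb. FGFR1 summits of shared regions had a median of -14 and -16 bp in the replicate lists (n = 2227 regions), and those of FGFR1-only regions -86 and -81 bp (n = 214). Pol II S5P summits had a median of 39 and 35 bp in shared regions (n = 2285) and 39 and 37 bp in Pol II-only regions (n = 2753). The share of summits inside the gene was 45.7% in both lists for shared FGFR1 regions and 27.1% and 28.0% for FGFR1-only regions, against 64.8% and 64.7% for shared and 67.3% and 65.6% for Pol II-only regions of Pol II S5P. At the 2040 genes with both targets at the start, the median of FGFR1 minus Pol II S5P was -15 to -17 bp over the 4 pairings, and FGFR1 was the upstream one at 57.1% to 57.7% of genes. The same difference was -2 bp between the FGFR1 replicates and 1 bp between the Pol II S5P replicates.

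**Figure D4:**
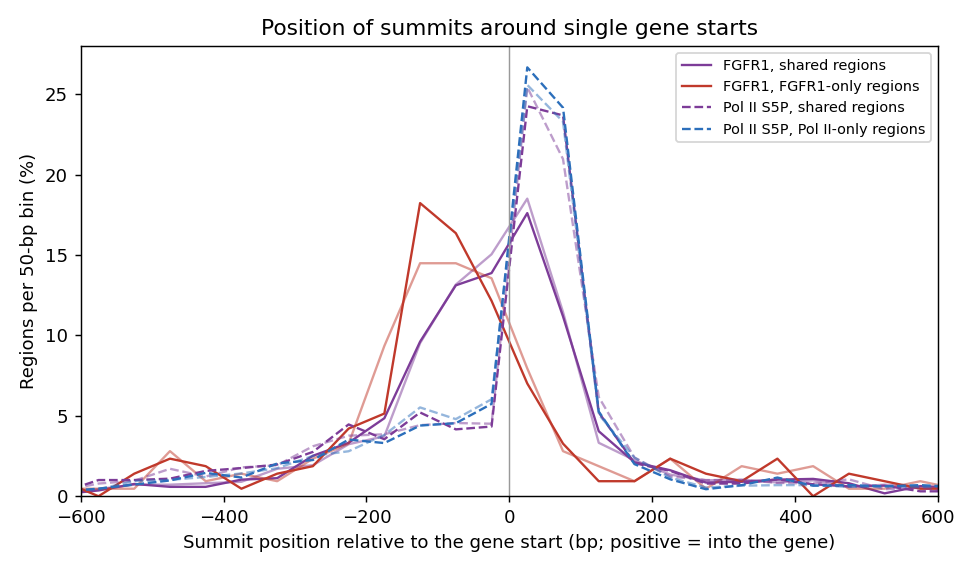
Share of regions (y axis, % per 50-bp bin) by summit position relative to the gene start (x axis, bp, positive into the gene), in replicate 1 (full colour) and replicate 2 (pale). Pol II S5P summits (dashed) pile up just inside the gene, with medians of 35 to 39 bp, while FGFR1 summits (solid) have medians of -14 and -16 bp in shared and -86 and -81 bp in FGFR1-only regions.

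Genes were classed by reproducible regions within 1 kb of either end. Of 19974 protein-coding genes, 19.9% had FGFR1 and 38.9% had Pol II S5P. Both were present at 3683 genes (18.4%), FGFR1 only at 298 (1.49%) and Pol II S5P only at 4081 (20.4%). At 3661 of the 3683 genes both targets were at the same end. FGFR1 genes thus had Pol II S5P in 92.5% (91.7% to 93.3%), and Pol II S5P genes had FGFR1 in 47.4% (46.3% to 48.5%). Of the 298 FGFR1-only genes, 109 had no Pol II S5P peak in either list and 182 had one in Pol II S5P replicate 1 only. Of the 4081 Pol II-only genes, 896 had no FGFR1 peak in either list and 3165 had one in FGFR1 replicate 2 only. In 10 equal groups by Pol II S5P strength, genes with FGFR1 made up 14.7% of the weakest and 93.6% of the strongest; with FGFR1 replicate 2 alone they made up 61.4% and 99.5%.

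The gene classes differed in other marks and in build. H3K4me3, the histone mark of promoters, was reproducible at 99.97% of genes with both targets, 97.99% of FGFR1-only genes, 99.5% of Pol II-only genes and 44.2% of genes with neither. FOXA1, a pioneer factor of luminal cells, was at 59.1%, 38.9%, 47.8% and 18.5% in the same order. Median gene length was 24574 bp with both targets, 40643.5 bp with FGFR1 only, 27600 bp with Pol II S5P only and 22532.5 bp with neither. Another gene's divergent start lay within 1 kb for 17.2%, 11.4%, 18.9% and 4.77% of the genes with a known start. Where both targets were present, Pol II S5P covered both ends of 12.8% of genes, and FGFR1 did so at 4.70%; at Pol II-only genes Pol II S5P did so at 4.48%.

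The genes with the strongest peaks of both targets had FGFR1 and Pol II S5P summits mostly within 200 bp, as did 78.1% to 80.9% of all summit pairs in shared regions. LOC124900276 led, with FGFR1 folds of 30.5 and 35.3 and Pol II S5P folds of 34.9 and 32.9. TAF12, a subunit of the general transcription factor TFIID, had 17.3 and 23.5 for FGFR1 and 37.3 and 27.8 for Pol II S5P. CDC25C, a phosphatase that starts mitosis, shares its region with the divergent FAM53C, at 19.6 and 25.1 for FGFR1 and 32.0 and 24.0 for Pol II S5P. JUNB, whose region also touches HOOK2, had 18.9 and 34.4 for FGFR1 and 29.4 and 23.1 for Pol II S5P. HNRNPAB, an RNA-binding protein of the hnRNP family, had 17.1 and 23.5 for FGFR1 and 33.3 and 27.5 for Pol II S5P, and CCND1 is given above. TONSL, a DNA repair gene, and VPS28, of the ESCRT sorting machinery, share 1 FGFR1 region with folds of 25.7 and 36.9. A Pol II S5P region (chr8:144427524-144429747) covered that FGFR1 region, with its summit 173 bp away. TONSL had its strongest Pol II S5P region at its other end.

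The strongest FGFR1 regions at genes without any Pol II S5P peak are described for the 8 strongest, which were chosen by that strength. RAPGEF1, an exchange factor for the small GTPase RAP1, led with FGFR1 folds of 22.1 and 27.8 over a region of only 342 bp (chr9:131740031-131740372), which overlaps the promoter printed above. ELOVL2, an elongase of polyunsaturated fatty acids, had 18.7 and 14.4, and COXFA4L3 had 10.2 and 18.7. MAX, the dimer partner of MYC, had 9.78 and 15.1. All of these carried H3K4me3 and H3K27ac, an acetylated histone found at active regulatory DNA. The others were CTSW (12.5 and 12.9), a protease of cytotoxic lymphocytes that lacked H3K4me3, MAP2 (10.9 and 14.7), a neuronal microtubule protein, BCAN (9.78 and 14.4), a matrix proteoglycan of brain, and SLC25A41 (9.78 and 12.4), a mitochondrial carrier. Of these 8 genes, 6 had an FGFR1 peak again in all 4 lists of transfected cells.

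Genes with Pol II S5P and no FGFR1 peak within 1 kb of either end included luminal and housekeeping genes. GATA3, a luminal master regulator, had Pol II S5P folds of 12.2 and 15.0 over 4072 bp at the far end of the gene. Farther inside GATA3, a Pol II S5P region of 11789 bp (chr10:8053466-8065254) held 2 FGFR1 regions, with folds of 5.23 and 7.77 and of 6.14 and 7.55, so the gene is not without FGFR1. ZBTB9 had 17.3 and 14.8, PRSS12, a serine protease gene, 18.1 and 14.1, EXOSC4, of the RNA exosome, 16.8 and 14.4, and RAB37, of the RAB GTPases, 19.5 and 12.1. CNPY3, a chaperone of Toll-like receptors, had 14.8 and 13.03. CDC26, of the anaphase-promoting complex, and PRPF4, a splicing factor, share a region at 15.1 and 11.2, and the ribosomal protein gene RPL35A had 13.1 and 11.7. None of these had an FGFR1 peak within 1 kb of an end in the transfected cells either. ZBTB9, EXOSC4 and CNPY3 each held 1 FGFR1 region inside the gene, over 1 kb from its outermost ends and on Pol II S5P. At ZBTB9 and CNPY3 it lay in the Pol II S5P region just given. At ZBTB9 the FGFR1 region (folds 7.28 and 7.11) overlapped the RefSeq promoter window. The ZBTB9 promoter thus carried both targets, and its class here comes from measuring at the ends of the gene. At CNPY3 the FGFR1 region began just past the printed window, which holds the annotated start, so its class has the same source. Of the 896 genes with Pol II S5P and no FGFR1 peak in either list at their ends, 37 (4.13%) held an FGFR1 region inside the gene, and of the 109 genes with the reverse pattern, 10 (9.17%) held a Pol II S5P region there.

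Of 15 functional gene lists, 4 had both targets at over 50% of their genes. Counts are given against the 18.4% of all genes with both targets and 20.4% with Pol II S5P only. Heat-shock and unfolded protein response genes had both targets at 18 of 28, cytosolic ribosomal protein genes at 50 of 78, immediate early genes at 20 of 32 and splicing factors at 17 of 30. FGFR1 only was found at 0 genes of these 4 lists, beside 1.49% of all genes. The number of such lists depends on the window: splicing factors were at 50% and not over it with 500 bp, and histone genes at 52.9% with 3 kb. The median percentile of Pol II S5P strength in these lists was 93.2, 89.6, 92.7 and 86.9, beside 72.0 over all genes. It was also high in histone genes (96.8) and luminal genes (92.2), of which 45.1% and 40.0% had both targets. The FGFR1 percentile of the first 4 lists was 78.7, 72.1, 89.0 and 74.3, beside 66.8.

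Immediate early genes, whose transcription growth factor signals switch on within minutes to hours, had FGFR1 at 20 of the 24 members with Pol II S5P (83.3%, beside 47.4% of all Pol II S5P genes). Their median Pol II S5P percentile was 92.7. FGFR1 was at 73.3% of Pol II S5P regions in strength group 9 and 88.2% in group 10, which meet at that percentile. Members of the list spread around that median, so these shares are not matched for strength. DUSP1, a MAP kinase phosphatase, had FGFR1 folds of 12.5 and 23.8 and Pol II S5P folds of 30.3 and 20.8. JUND had 16.4 and 17.3 for FGFR1 and 23.9 and 21.95 for Pol II S5P. The 4 members with Pol II S5P only, among them JUN (11.98 and 9.01), CCN1 (11.1 and 8.57) and IER2 (7.80 and 6.11), each had an FGFR1 peak in replicate 2.

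The strongest heat-shock genes had FGFR1 and Pol II S5P summits within 13 bp of each other. The mean summits were 1 bp apart at HSPA1A, which encodes an inducible HSP70, with folds of 10.0 and 18.7 for FGFR1 and 32.5 and 28.2 for Pol II S5P. HSPA1B, its near-identical neighbour, had summits 13 bp apart, with 11.8 and 18.9 for FGFR1 and 39.5 and 27.8 for Pol II S5P, and reads of this pair may be split between them. At the cytosolic chaperone gene HSP90AB1 the summits were 0.5 bp apart, with 11.1 and 15.3 for FGFR1 and 30.0 and 28.4 for Pol II S5P. HSPA8 (14.8 and 10.6) and SDF2L1 (10.0 and 8.79) had Pol II S5P only by this rule, but each of the 7 such genes of the list had an FGFR1 peak in replicate 2.

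FGFR1 was at 65.8% of the cytosolic ribosomal protein genes and 58.6% of the splicing factor genes with Pol II S5P, beside 47.4% of all Pol II S5P genes. Pol II S5P was strong in both lists, with median percentiles of 89.6 and 86.9. Both medians lay in strength group 9, percentiles 85.6 to 92.7, where 73.3% of Pol II S5P regions carried FGFR1. The lists also hold genes outside that group, so these shares are not matched for strength. The part of strength in them was not tested. RPS3 had FGFR1 folds of 12.5 and 21.3 over 932 bp inside a Pol II S5P region of 5463 bp with folds of 41.7 and 29.5. SRSF3, a splicing factor, had 10.2 and 16.4 for FGFR1 and 33.6 and 24.2 for Pol II S5P. Of the 26 ribosomal protein genes with Pol II S5P only, 23 had an FGFR1 peak in replicate 2 alone, as did 9 of the 12 such splicing factor genes, TRA2B (Pol II S5P folds 20.6 and 17.3) among them.

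**Figure D5:**
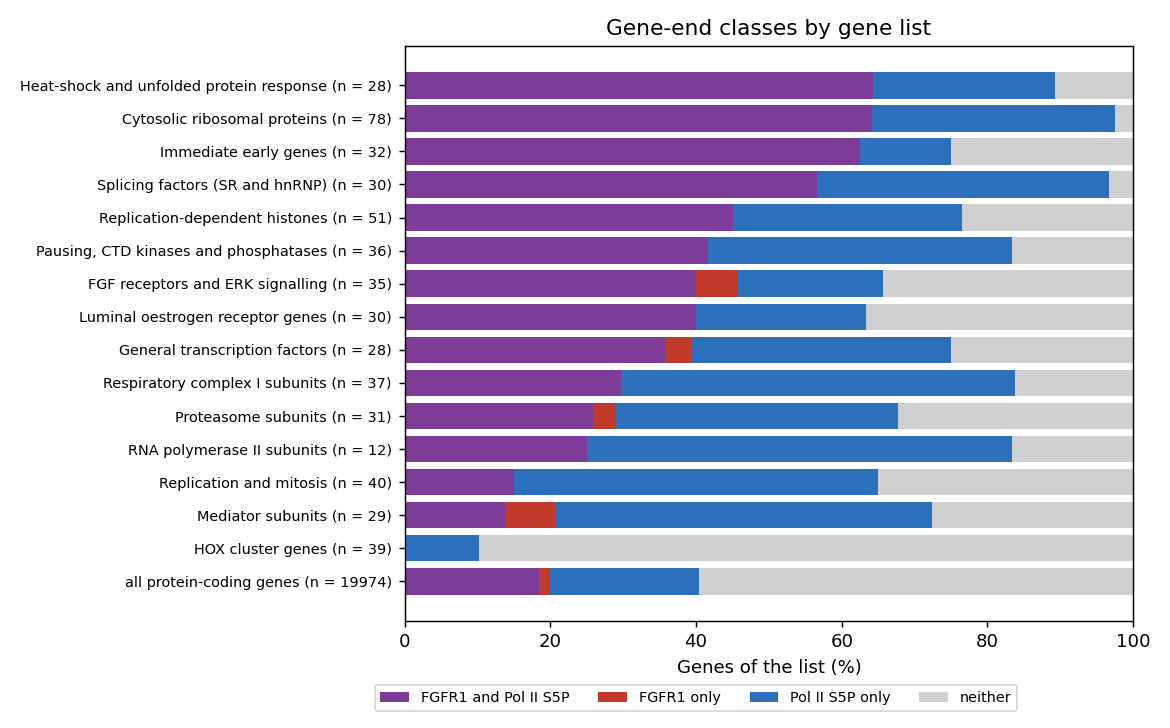
Share of genes (x axis, %) in each list (y axis, with number of genes) that had both targets, FGFR1 only, Pol II S5P only or neither within 1 kb of an end. Lists are ordered by the share with both targets, with all 19974 protein-coding genes at the bottom (18.4% both, 1.49% FGFR1 only, 20.4% Pol II S5P only).

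Genes of the transcription machinery were split between both targets and Pol II S5P only. Of all genes, 18.4% had both, 1.49% FGFR1 only and 20.4% Pol II S5P only. Of the 12 Pol II subunit genes, 3 had both targets (POLR2A, POLR2C and POLR2E) and 7 had Pol II S5P only, each of those with an FGFR1 peak in replicate 2. POLR2A had FGFR1 folds of 10.0 and 14.9 and Pol II S5P folds of 23.9 and 23.5. General transcription factor genes had both at 10 of 28, FGFR1 only at 1 (TAF1, at 5.23 and 9.77) and Pol II S5P only at 10. Mediator subunits, which bridge activators and polymerase, had both at 4 of 29 (13.8%, below the share of all genes), FGFR1 only at 2 and Pol II S5P only at 15. MED4 was the highest of them for FGFR1 (14.8 and 19.3, with 7.36 and 7.67 for Pol II S5P), and MED13L had FGFR1 only, at 10.0 and 19.8. TAF1, MED13L and the other such Mediator gene, MED19, each had a peak in Pol II S5P replicate 1. Genes of pausing and of the kinases and phosphatases of the tail had both at 15 of 36 and Pol II S5P only at 15. HEXIM1, an inhibitor of the elongation kinase CDK9, had 11.4 and 16.7 for FGFR1 and 26.7 and 21.1 for Pol II S5P, and SUPT5H, of the pausing factor DSIF, had Pol II S5P only at 13.1 and 10.4.

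Signalling genes held members of every class. Counts stand beside 18.4% of all genes with both targets and 20.4% with Pol II S5P only. Luminal genes had FGFR1 only at 0 of 30, close to the 1.49% of all genes in that class. Of 35 genes of FGF receptors and ERK signalling, 14 had both, 2 had FGFR1 only and 7 Pol II S5P only. The FGFR1 gene had FGFR1 folds of 10.0 and 10.4 and Pol II S5P folds of 22.99 and 19.7, and FGFR4 had 10.0 and 13.3 for FGFR1 and 19.7 and 17.3 for Pol II S5P. FGFR3 (5.23 and 6.22) and SPRED1, an inhibitor of RAS signalling (4.55 and 6.88), had FGFR1 only, both with a peak in Pol II S5P replicate 1. Luminal oestrogen receptor genes had both at 12 of 30 and Pol II S5P only at 7. The demethylase gene KDM4B was the highest for FGFR1 (16.6 and 24.9, with 16.2 and 11.9 for Pol II S5P). FOXA1 had 5.004 and 7.99 for FGFR1 and 10.0 and 7.23 for Pol II S5P, at places 7353 bp apart.

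In 3 lists of proliferation and metabolism genes, more members had Pol II S5P without reproducible FGFR1 than had both, as over all genes (4081 against 3683). Replication and mitosis genes had both at 6 of 40 and Pol II S5P only at 20, complex I subunits of the respiratory chain 11 and 20 of 37, and proteasome subunits 8 and 12 of 31. FGFR1 was thus at 23.1%, 35.5% and 40.0% of their Pol II S5P genes, beside 47.4% of all. Of the Pol II-only members, 13 of 20, 17 of 20 and 11 of 12 had an FGFR1 peak in replicate 2 alone. Median Pol II S5P percentiles of these lists were 59.4, 69.1 and 73.9, beside 72.0 over all genes. CDT1, a replication licensing factor, had both, at 4.78 and 6.44 for FGFR1 and 15.1 and 10.4 for Pol II S5P. Replication-dependent histone genes had both at 23 of 51 and Pol II S5P only at 16, beside 18.4% and 20.4% of all genes. These genes lie in clusters, so that neighbours share regions. H1-4 had 8.42 and 11.1 for FGFR1 over 783 bp and 34.2 and 30.0 for Pol II S5P over 3149 bp. Of 39 HOX genes, which pattern the body axis, 0 had FGFR1 and 4 had Pol II S5P, beside 19.9% and 38.9% of all genes.

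Segments of 8p11 around FGFR1 and of 11q13 around CCND1 held many Pol II S5P regions without FGFR1. At the gene level the share with both targets was above that of all genes (18.4%). Of the 20 genes of 8p11, 15 had both targets (75%), and of the 13 of 11q13, 6 had both (46.2%). Over the whole segments 24 of 30 and 24 of 33 FGFR1 regions were shared, against 21 of 90 (23.3%) and 20 of 104 (19.2%) Pol II S5P regions, beside 40.3% of all Pol II S5P regions. ZNF703, an 8p11 oncogene of luminal tumours, had FGFR1 folds of 12.7 and 20.7 and Pol II S5P folds of 34.0 and 30.2. CTTN, the cortactin gene of 11q13, had 14.1 and 19.98 for FGFR1 and 24.97 and 23.3 for Pol II S5P. Fold enrichment was called against 1 background per list, and the part of gene copy number in these folds was not tested.

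A smaller share of FGFR1-only regions than of the other classes lay at gene ends. Within 1 kb of a gene end were 79.2% of shared FGFR1 regions, 40.3% of FGFR1-only regions and 67.4% of Pol II-only regions. Away from gene ends, H3K4me3 was at 93.4% of the 818 shared, 67.1% of the 477 FGFR1-only and 58.4% of the 1943 Pol II-only regions, and H3K27ac at 88.4%, 83.0% and 74.6%. Regions with H3K27ac and no H3K4me3, a pattern known from enhancers, made up 3.06%, 19.5% and 17.04%, and FOXA1 was at 49.3%, 44.7% and 37.0%. The strongest distal FGFR1 region with no Pol II S5P peak lay 46118 bp from TRIM33 (chr1:114346453-114346891, folds 31.2 and 44.4) and carried all 3 of H3K4me3, H3K27ac and FOXA1. The next were nearest to LTBP4 (22.1 and 26.4), PLXNB2 (24.8 and 21.8), CHST8 (18.7 and 25.8) and ADGRG1 (17.5 and 24.2), those at PLXNB2 and ADGRG1 inside the gene.

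The strongest distal Pol II S5P regions with no FGFR1 peak stood apart from all of these. The first 5 all lay inside PIK3CA, the gene of a PI3-kinase catalytic subunit, with folds from 85.5 and 86.7 at the highest to 54.5 and 54.8, at widths of 476 to 624 bp, and carried none of the 3 marks. In all, 461 Pol II S5P regions had none of the 3 marks, and 16 of them lay in PIK3CA. The most, 28, lay in KCNU1, with folds of at most 6.26 and 6.11. AKT2 held 8 (folds up to 38.8 and 53.4) and AKT1 held 6 (up to 20.8 and 29.1), all without an FGFR1 peak in either untransfected list. In siNT cells, FGFR1 peaks overlapped 7 and 3 of the 16 regions in PIK3CA and 0 of those in AKT1 and AKT2. These genes were picked out after their values were seen. Exons are not given in the tables used here, and whether these narrow, unmarked peaks reflect polymerase on the gene was not tested. Without the 16 PIK3CA regions the share of Pol II S5P regions with FGFR1 was 40.3%.

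A larger share of FGFR1-only than of shared regions was found again in FGFR1 lists of transfected CAMA1 cells, though not with every FGFR1 list. In the lists of cells given the non-targeting siRNA (siNT), collected 72 h after transfection, FGFR1 peaks overlapped 50.7% and 51.9% of FGFR1-only regions, against 34.1% and 37.1% of shared regions. Of the 474 with no Pol II S5P peak in either list, 60.5% were found in each, and of Pol II-only regions 8.65% and 8.68%. After siFOXA1, FGFR1 peaks overlapped 34.8% and 34.7% of FGFR1-only regions and 20.6% and 17.4% of shared ones. The order held in each of 4 equal groups by FGFR1 strength: in the strongest, siNT peaks overlapped 84.7% and 85.7% of FGFR1-only and 71.8% and 72.3% of shared regions, and in the weakest 28.9% and 30.6%, against 14.9% for shared regions in both lists. It rests on FGFR1 replicate 1, however: with the peaks of replicate 2 alone, shared minus FGFR1-only was 1.06 percentage points, against -15.7 with both replicates.

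Promoters with a reproducible FGFR1 region were richer in G and C, with or without a reproducible Pol II S5P region. A promoter without such a region can still hold a peak of a single list. Among genes classed by their ends, 182 of 298 with FGFR1 only had a Pol II S5P peak in replicate 1 only. Of the 4081 with Pol II S5P only, 3165 had an FGFR1 peak in replicate 2 only. Windows of 300 bases as printed above were classed by the regions that overlap them, for 15812 genes: 2644 with both, 234 with FGFR1 only, 3262 with Pol II S5P only and 9672 with neither. Median GC content was 69.7%, 73.0%, 65.0% and 58.7% in that order. It was also higher with FGFR1 than without at like Pol II S5P strength: 71.0% against 64.7% in the weakest part of 3 equal parts of the Pol II S5P promoters, 70.0% against 65.3% in the middle and 68.7% against 64.0% in the strongest. GC content also affects how DNA is amplified and sequenced, and its part here was not tested.

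Some motif shares differed between promoter classes and others were close. The GC box was in 81.6% of promoters with both targets, 87.6% with FGFR1 only, 74.6% with Pol II S5P only and 58.5% of all 15812. The TATA box was in 4.65%, 2.99%, 4.23% and 9.64% in the same order. The ETS motif was in 11.6%, 4.70%, 11.8% and 6.20%. The CTCF core was in 4.01% (3.33% to 4.83%), 8.55% (5.601% to 12.8%; 20 promoters), 2.05% (1.62% to 2.60%) and 2.50%. Among promoters with over 70% GC the CTCF core was in 5.73%, 10.7%, 3.83% and 6.12%. This motif was added to the search after the printed windows had been seen. RAPGEF1 and COXFA4L3, which hold it, are among the FGFR1-only promoters counted. These shares are thus not independent of how the motif was picked. The forkhead core, as in the JUNB window, was in 1.44%, 4.27%, 1.93% and 2.62%. CCAAT was in 35.8%, 35.9%, 40.1% and 36.3%, and the E box in 12.4%, 11.97%, 10.6% and 8.87%. The AP-1 motif was in 2.08%, 1.28%, 2.33% and 3.67%, and the cyclic AMP response element in 3.78%, 2.99%, 4.51% and 2.59%. FGFR1-only counts of several motifs were small. Of 234 promoters, 3 held the AP-1 motif and 7 the cyclic AMP response element. The TATA box was in 7, the forkhead core in 10 and the ETS motif in 11.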

How the data were processed

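FGFR1 and Pol II S5P ChIP-seq peak lists of CAMA1 cells were used as deposited, 2 per target, beside the H3K4me3, H3K27ac, FOXA1 and transfected FGFR1 lists of the series; 7 inputs were not analysed here. Bowtie2, SAMtools, Picard, MACS2 and the build hg38 are named in the submitters' processing notes, without versions. The authors deposited 1 list per sample, hence peaks are those of single libraries. For each peak the deposited list holds a linear ratio, its fold enrichment over background, with a −log10 q-value and a −log10 p-value, all the authors' own. Every deposited p-value matched a Poisson count against 1 background per list (tolerance 0.02). The labels were followed where peak names inside the FGFR1 lists give other replicate numbers. Nothing says that the 2 libraries of a target are from different cultures, and the spread between them can be technical.

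Rows on chromosomes 1 to 22 and X were kept, overlapping rows merged, and regions, overlaps (1 bp) and distances computed with Python 3.11.15, numpy 2.4.6, pandas 2.3.3, scipy 1.17.1 and matplotlib 3.10.9; overlap code was tested on simulated data. The mean of both summits stands for a region where a single distance is given. Gene ends, and promoters with strand for 15812 of 19974 genes, came from RefSeq (GRCh38.p14). Exact permutation tests compared lists; regions and genes, which are not replicates, have Wilson 95% intervals only. The named genes were the 8 strongest of each class by fold percentile, those with a single target only where neither list held a peak of the other, the 5 widest regions of each target, up to 3 genes per class in each list, and FGFR1, POLR2A, FOXA1 and CCND1. Members, gene lists and rules were chosen with earlier results of these data known. Alternatives were a stricter q-value, other overlaps, lists of equal length, each list left out, other windows, stricter classes, and the 8p11 and 11q13 segments left out.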

Additional observations from a re-analysis of the deposited data

How the results depend on the processing

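With the replicate block, which compares only lists of the same replicate number, 74.1% of FGFR1 and 46.2% of Pol II S5P peaks overlapped the other target, and genes numbered 5371.5 with both, 731 with FGFR1 only and 3267 with Pol II S5P only, as means of both pairs; the numbers pair no cultures that the labels name. Lists of equal length (5341 peaks) gave shares of 65.8% for FGFR1 and 56.1% for Pol II S5P, 857 FGFR1-only and 1858 Pol II-only genes, and a summit distance of 71 bp. A reciprocal overlap of 50% gave shares of 68.3% and 32.5% and a distance of 77.9 bp. The distance was 78.5 bp both with a −log10 q of at least 5 and with the FGFR1 summit inside the Pol II S5P region. Strict classes, with no peak of the other target in either list, gave 79.1% of Pol II S5P regions with FGFR1, 109 FGFR1-only and 896 Pol II-only genes, and a Pol II S5P width ratio of 1.55. Leaving out 1 list at a time gave 62.3% to 89.5% for the FGFR1 share, 24.1% to 78.4% for the Pol II S5P share, width ratios of 1.31 to 1.62 for FGFR1 and 1.37 to 1.88 for Pol II S5P, distances of 79 to 89 bp, 3662 to 6858 genes with both, 114 to 1379 with FGFR1 only and 906 to 5586 with Pol II S5P only. The Pol II S5P share of 78.4%, the 6858, 1379 and 906 genes came without FGFR1 replicate 1, and the 114 genes without Pol II S5P replicate 2. Width ratios stayed above 1 in every setting run. The difference in the share of FGFR1 regions found again after siNT, shared minus FGFR1-only, compared after the data had been seen, was -19.3 percentage points at the stricter q, -20.2 without chromosomes 1, 8 and 11 and -24.9 with strict classes; single lists left out gave -24.5 to 1.06, and the value without FGFR1 replicate 1 was the reversed one. Of the gene list shares, 61 of 63 stayed within their interval at the stricter q, and 62 of 63 with windows of 500 bp and of 3 kb. With 2 lists per target, of unequal length, an absent peak does not show that a target was absent, and depth is known only as background per list.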
